A study of Mus musculus with 4 samples.

Results

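The genes described here encode the enzymes that conjugate, oxygenate, activate or hydrolyse drugs, steroids and other small lipophilic molecules. All gene symbols of 6 families were taken: the UDP-glycosyltransferases (Ugt), the glutathione S-transferases (Gst of the alpha, mu, pi, theta, kappa, omega and zeta classes), the sulfotransferases (Sult), the flavin monooxygenases (Fmo), the medium-chain acyl-CoA synthetases (Acsm) and the carboxylesterases (Ces). Of 93 such symbols among the 27998 genes counted, 63 had at least 50 unique molecular identifiers (UMIs, which count captured RNA molecules) summed over all libraries, and these are the members. They comprise 14 Ugt, 20 Gst, 8 Sult, 5 Fmo, 4 Acsm and 12 Ces genes. The summed UMI number chose them and is given only as a description: Ces1c, at 50 UMIs, lay just inside the limit, and Ugt1a1, at 45, and Sult4a1, at 42, lay just outside it. Together the members took 0.408% of all UMIs.

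Nuclei came from flash-frozen kidneys of C57BL/6 mice at postnatal week 22, in 2 libraries labelled as losartan and 2 as untreated. Losartan is a drug that blocks the type 1 receptor of angiotensin II. Strain, tissue and age were the same in all 4 libraries. The labels state neither the dose nor the route nor the length of treatment, and they do not tie the libraries of a group to separate animals. The p-values measure only the spread between these samples, which may be technical.

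Enzymes of this kind make small molecules more water-soluble or ready for export. Flavin monooxygenases add oxygen to nitrogen and sulphur atoms, and carboxylesterases split esters, which exposes groups that the transferases can use. Glycosyltransferases attach a sugar, sulfotransferases a sulphate and glutathione S-transferases glutathione, while medium-chain acyl-CoA synthetases activate medium-chain fatty acids and aromatic acids such as benzoate, the first step of their conjugation to glycine. In the kidney much of this chemistry takes place in the proximal tubule, which runs from the convoluted S1 through S2 to the straight S3 segment and also takes up and secretes organic ions. Some members of these families serve other pathways: Ugt8a makes galactosylceramide, and Gstz1 acts in the breakdown of tyrosine.

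The members lie mostly in clusters of neighbouring copies. On GRCm38 with the GENCODE M21 annotation, 63 of 63 were placed: 13 on chromosome 8, where Ces1 and Ces2 genes form separate clusters, 11 on chromosome 1, 8 on chromosome 3, 7 each on chromosomes 5 and 7, 4 each on chromosomes 10 and 19, 3 on chromosome 9, 2 each on chromosomes 15 and 17 and 1 each on chromosomes 6 and 12. The Ugt1a genes on chromosome 1 share their last exons and each starts at its own first exon, so that the annotated span of Ugt1a10 (88055388 to 88219004, plus strand) overlaps 16 other genes on the same strand. Near-identical copies among Ugt1a, Ugt2b, Gstm, Gsta and Ces1 genes may share reads, and the values of single members of these groups are uncertain to that extent. Whether the counting used strand is not given, and 19 members overlap a gene on the opposite strand, among them Acsm1, Acsm3, Acsm5, Sult5a1 and Gstz1.

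Promoter sequences are shown for Ugt1a10, Acsm2 and Gsta3, members whose values are given in full below. RefSeq start sites (GRCm38.p6) were matched for 54 of the 63 members, some with more than 1 start, which gave 66 windows of 250 bases upstream. The windows follow 5′ to 3′ on the strand of the gene, which is plus for the 3 genes. They lie at chr1:88055161-88055410 for Ugt1a10, chr7:119554090-119554339 for the upstream start of Acsm2 and chr1:21240335-21240584 for Gsta3. Capitals mark a match to the antioxidant response element, TGACNNNGC, which binds factors of the response to electrophiles, and the Ugt1a10 window holds none.
Ugt1a10: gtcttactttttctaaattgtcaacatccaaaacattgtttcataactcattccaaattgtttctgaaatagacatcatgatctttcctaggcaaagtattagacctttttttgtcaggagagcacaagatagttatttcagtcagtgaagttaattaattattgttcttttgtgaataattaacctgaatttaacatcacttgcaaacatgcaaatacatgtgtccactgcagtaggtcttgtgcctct
Acsm2: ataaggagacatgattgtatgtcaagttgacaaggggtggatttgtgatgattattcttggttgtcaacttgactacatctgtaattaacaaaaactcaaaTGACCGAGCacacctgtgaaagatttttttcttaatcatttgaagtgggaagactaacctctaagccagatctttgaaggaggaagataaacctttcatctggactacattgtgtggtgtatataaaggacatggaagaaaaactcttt
Gsta3: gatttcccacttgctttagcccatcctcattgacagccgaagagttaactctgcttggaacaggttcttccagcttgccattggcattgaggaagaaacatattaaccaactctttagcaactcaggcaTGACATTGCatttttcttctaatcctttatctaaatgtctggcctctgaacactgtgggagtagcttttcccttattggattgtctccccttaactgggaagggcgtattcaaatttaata

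The matched bases begin 149 bases before the start of Acsm2 and 121 before that of Gsta3. The element, searched on both strands with no mismatch, was found in 4 of the 66 member windows (6.06%; the other two are of Gstm5 and Gstm7) and in 10.2% of 32817 windows of the same length over all genes. The HNF4 motif, AGGTCA repeated after 1 free base, with up to 2 mismatches, was found in 1 member window (1.52%), against 3.23% of all windows. The androgen and glucocorticoid response element, AGAACA and TGTTCT with 3 free bases between them and up to 2 mismatches, was found in 1 (1.52%), against 1.55%. A match is a string of letters and not a measured site, and the shares were not tested.

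The libraries were similar in size. Total UMIs were 58820323 and 59078762 in the losartan libraries and 42290414 and 54971880 in the untreated libraries, and 35935 of 39654 barcodes were kept as nuclei. Nuclei were clustered and named from markers, and segment names within the proximal tubule stand for nuclei that resemble S1, S2 or S3 by those markers. S1 held 1038 and 796 nuclei in losartan libraries 1 and 2 and 595 and 373 in untreated libraries 1 and 2. S2 held 1857 and 996 nuclei with losartan and 496 and 411 untreated, S3 held 628 and 678 with losartan and 699 and 409 untreated, and a further 3237 tubule nuclei could not be given a segment. Losartan library 1 stood apart: it gave 523 of the 598 nuclei of 1 subcluster of S1 and 1129 of the 1246 nuclei of 1 subcluster of S2. Any pair of libraries shared 21 to 29 barcodes. Transcripts of the Y-linked genes Ddx3y, Uty, Eif2s3y and Kdm5d were present in every library, at 122 and 122 CPM (counts scaled to the library total) for Ddx3y with losartan and 101 and 105 CPM untreated, and Xist lay between 0.719 and 1.11 CPM, so the libraries are alike in sex.

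The enzymes differed in where along the proximal tubule they were found. The segments come from clusters of the same nuclei, with the members left out of the genes used to cluster, so these levels are a description without a test. Of 48 members with at least 50 UMIs over the named segments, 9 were highest in S1 in 4 of 4 libraries, 10 in S2 and 9 in S3, and for 20 the highest segment varied between libraries. The Ces genes with a fixed order were highest in S1 (3) or S2 (4), and the 2 Acsm genes with a fixed order were highest in S3. For 9 members all 4 libraries of the highest segment lay above every library of both other segments: Ugt2b34 and Ugt2a3 in S1, Ugt2b37, Ugt2b5, Ugt1a7c and Ces2c in S2, and Acsm1, Gstz1 and Gstm1 in S3.

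Neighbouring Ugt2b genes took different segments. Ugt2b34 had 21.6 and 16.6 CPM in S1 with losartan and 18.9 and 7.6 CPM untreated. Its S2 and S3 means were 0.727 ± 0.253 and 1.37 ± 0.146 CPM (SD, n = 4 libraries of both groups). Ugt2b37, in the same cluster on chromosome 5 (87240493 to 87254804, minus strand), had 340 and 315 CPM in S2 with losartan and 276 and 209 CPM untreated, with means of 31.7 ± 4.56 CPM in S1 and 20.8 ± 10.8 CPM in S3. Ugt2b5 followed the S2 pattern, with a mean of 38.7 ± 9.83 CPM in S2, 5.03 ± 2.77 CPM in S1 and 2.64 ± 1.36 CPM in S3. Ugt2b38 was instead highest in S1, with 303 ± 190 CPM there, 225 ± 197 CPM in S2 and 28.6 ± 21.3 CPM in S3, and its large SD reflects losartan library 1, at 583 CPM in S1. The Ugt2b genes of one cluster thus covered S1 and S2, and none of these 4 was highest in S3.

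Other families showed their own order. Ces1e, a carboxylesterase, averaged 58.8 ± 8.23 CPM in S1, 45.9 ± 7.15 CPM in S2 and 4.17 ± 1.59 CPM in S3. Ces1d, which also hydrolyses triacylglycerol, averaged 351 ± 57.9 CPM in S1, 444 ± 59.7 CPM in S2 and 112 ± 30.6 CPM in S3. Fmo5 ran the other way, and its S3 SD took in the group difference (342 and 356 CPM with losartan, 140 and 229 CPM untreated). It averaged 37.9 ± 10.8, 200 ± 52.7 and 267 ± 102 CPM from S1 to S3. Acsm1, which activates medium-chain acids, averaged 257 ± 16.6, 604 ± 68.6 and 765 ± 74.8 CPM in the same order, and Gstm1, a mu-class transferase, 17.8 ± 5.08, 26.3 ± 5.26 and 66.3 ± 13.7 CPM. Sult1d1, a sulfotransferase of catecholamines in the mouse, was spread more evenly, with 229 ± 42.9, 258 ± 67.4 and 346 ± 85.3 CPM.

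**Figure D1:**
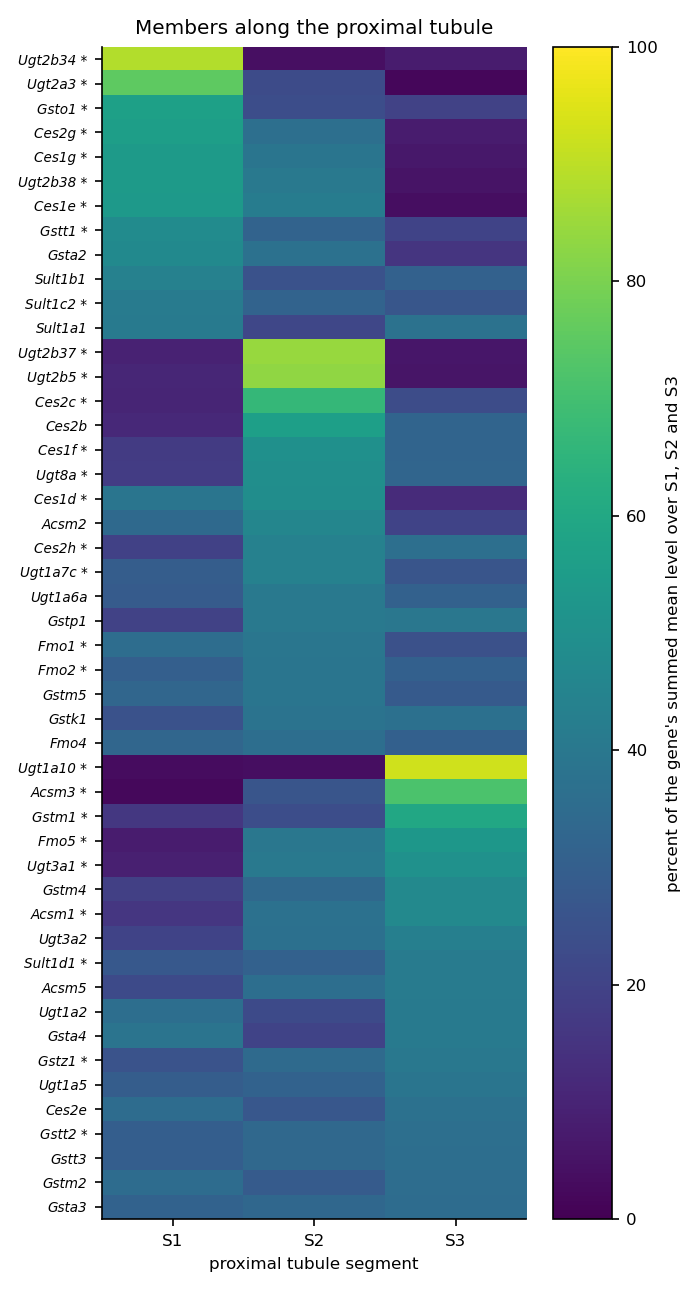
Heat map of 48 members (rows) over the proximal tubule segments S1, S2 and S3 (columns), where colour gives each segment's percentage of the gene's mean level summed over the 3 segments and an asterisk marks the 28 members with the same highest segment in 4 of 4 libraries. Ugt2b34 sits mostly in S1, Ugt2b37 and Ugt2b5 in S2, and Ugt1a10 in S3, while many Gst genes are close to even.

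Losartan was set against untreated to ask which of these enzymes differed with blockade of the receptor. The quasi-likelihood test of edgeR on counts summed per library, adjusted by Benjamini-Hochberg over all genes, is used throughout, and a gene is said to be called where that adjusted p is below 0.05. Levels set beside a fold change are CPM scaled by edgeR's TMM factors, and fold changes are log2, losartan over untreated. In the proximal tubule as a whole, 55 of the 63 members passed the filter on low counts, and the other 8 (among them Ces1c, Ces2f, Ces4a, Gstm6, Gstt4, Sult2a3 and Sult2b1) had at most 27 UMIs in any library. No member was called, against a background of 0% of all genes, and 23 of the 55 had an unadjusted p under 0.05, against 12.5% of all genes. Both losartan libraries lay above both untreated libraries for 20 members (background 21.6%) and below them for 15 (background 23.4%). The median log2 change of the members was 0.12, beside -0.01 over all genes. DESeq2 called 8 of the members, against 2% of all genes. The segments made up unequal parts of these sums: S2 gave 1857 and 996 nuclei with losartan and 496 and 411 untreated. In the pooled tubule, here and in the family paragraphs below, a shift in segments and a change per nucleus cannot be told apart.

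The Acsm genes had positive changes in the proximal tubule throughout, without a call. Acsm2 (chromosome 7, 119554340 to 119600690, plus strand) had 2418 and 1825 CPM with losartan and 1087 and 1369 CPM untreated, a log2 change of 0.79 (SE 0.19, adjusted p = 0.248). Acsm3 had 349 and 110 CPM with losartan and 51.3 and 83.1 CPM untreated, a change of 1.77 (SE 0.55, adjusted p = 0.303). In both genes the 2 groups did not overlap, and in Acsm3 losartan library 1 stood far above the other 3 libraries. Without that library the Acsm3 change was 0.72 (adjusted p = 0.888), and without losartan library 2 it was 2.38 (adjusted p = 0.00551). Acsm1 had 561 and 579 CPM with losartan and 484 and 429 CPM untreated (0.32, adjusted p = 0.324), and Acsm5 had 243 and 201 CPM with losartan and 173 and 164 CPM untreated (0.40, adjusted p = 0.302). In the tubule sums all 4 Acsm genes lay higher in both losartan libraries (21.6% of all genes), with a median change of 0.59. Within segments the groups overlapped for Acsm2 in S1, for Acsm1 in S2 and for Acsm5 in S1 and S2. Acsm3 separated the groups in every segment as a whole, but not in every subcluster. In S3 the groups overlapped in the subcluster of 576 nuclei, at 1290 and 375 CPM with losartan and 478 and 318 CPM untreated. In S2 they overlapped in that of 994 nuclei (254 and 51.4 CPM with losartan, 60.9 and 65.8 CPM untreated) and in that of 1246. They did not overlap in the other subclusters of S1, S2 and S3. The summed Acsm level in the tubule was 3571 and 2716 CPM with losartan and 1796 and 2046 CPM untreated.

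Among the flavin monooxygenases, 3 of the 4 tested lay higher in both losartan libraries (21.6% of all genes) and none was called. Fmo1, a major form in mouse kidney, had 493 and 513 CPM with losartan and 279 and 309 CPM untreated, a log2 change of 0.78 (SE 0.10, adjusted p = 0.212). Fmo2 had 314 and 359 CPM with losartan and 169 and 256 CPM untreated (0.66, adjusted p = 0.307). Fmo5 had 194 and 199 CPM with losartan and 84.5 and 132 CPM untreated (0.86, adjusted p = 0.248). The 3 genes separated the groups, while Fmo4, at 44.7 and 49.4 CPM with losartan and 48.4 and 52.6 CPM untreated, overlapped. DESeq2 called Fmo1 (adjusted p = 1.19e-05) and Fmo5 (adjusted p = 0.011) in the same sums.

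The carboxylesterases were mixed in size but mostly positive, with a median log2 change of 0.41 over 9 tested genes. Ces1f had 558 and 393 CPM with losartan and 330 and 257 CPM untreated (0.70, adjusted p = 0.29). Ces1d had 356 and 424 CPM with losartan and 250 and 342 CPM untreated (0.40, adjusted p = 0.44), and Ces1e had 53.6 and 47 CPM with losartan and 37.8 and 37.9 CPM untreated (0.41, adjusted p = 0.266). In these 3 genes the groups did not overlap in the tubule sums. Within segments the Ces1f changes were smaller, at 0.56 in S1, 0.44 in S2 and 0.42 in S3, and the groups overlapped in S1 and S2. The Ces1d groups overlapped in S2 and S3, and those of Ces1e in no segment. Ces2b had 4.85 and 0.427 CPM with losartan and 1.14 and 0.511 CPM untreated, so its change of 1.70 (adjusted p = 0.583) rested on losartan library 1 and was -0.93 without it.

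The glycosyltransferases moved in opposite directions within the family: 6 of 14 lay higher in both losartan libraries (21.6% of all genes) and 5 lay lower (23.4%). Ugt2b38 (chromosome 5, 87409942 to 87424203, minus strand) had 502 and 169 CPM with losartan and 130 and 82 CPM untreated, a log2 change of 1.66 (SE 0.52, adjusted p = 0.306), and Ugt2b37 had 190 and 134 CPM with losartan and 97.3 and 90.7 CPM untreated (0.78, adjusted p = 0.24). Ugt8a, the ceramide galactosyltransferase, had 425 and 321 CPM with losartan and 158 and 235 CPM untreated (0.92, adjusted p = 0.248), and Ugt3a2 had 473 and 408 CPM with losartan and 357 and 352 CPM untreated (0.31, adjusted p = 0.352). None of these groups overlapped in the tubule sums. Within segments the groups overlapped for Ugt2b38 in S1, at 583 and 233 CPM with losartan and 239 and 158 CPM untreated (without TMM factors). They also overlapped for Ugt3a2 in S3 (log2 change -0.03), and Ugt2b37 lay lower in both losartan libraries in S1 (-0.30). Ugt8a separated the groups in every segment. For all of these genes losartan library 1 was the highest library in the tubule sums. The Ugt2b38 change was 0.67 without that library and 2.25 (adjusted p = 0.0063) without losartan library 2. Ugt2a3 had 6.58 and 7.05 CPM with losartan and 2.74 and 3.07 CPM untreated (1.23, SE 0.21, adjusted p = 0.223). The Ugt1a genes lay on the other side. Ugt1a2 had 1.08 and 1.23 CPM with losartan and 4.49 and 2.7 CPM untreated (-1.63, SE 0.36, adjusted p = 0.237), and Ugt1a6a had 11.3 and 11.6 CPM with losartan and 24.1 and 16.7 CPM untreated (-0.84, adjusted p = 0.248). Ugt1a7c, within the same overlapping cluster, had 11.8 and 12.3 CPM with losartan and 11.8 and 12 CPM untreated, a change of 0.01.

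Of 18 glutathione S-transferases tested, 8 lay below both untreated libraries (23.4% of all genes) and 2 above (21.6% of all genes). Their median log2 change was -0.35, and 4 had an unadjusted p under 0.05 (12.5% of all genes). Gsta2, of the alpha class, had 48.9 and 69 CPM with losartan and 123 and 95.3 CPM untreated (-0.89, SE 0.20, adjusted p = 0.242), and Gsta3 had 50.3 and 82.5 CPM with losartan and 85 and 97.6 CPM untreated (-0.46, adjusted p = 0.491). Gsta1 gave 1 and 1 UMI with losartan and 13 and 11 UMIs untreated (adjusted p = 0.213). Over the group sums its level with losartan was 0.0503 times the untreated level, with an exact 95% interval of 0.00576 to 0.203 that covers counting error only. Gsta1 passed the UMI limit for members only through the untreated libraries (33 and 44 UMIs over all barcodes, against 1 and 4 with losartan). It was named for its place among the lowest changes, so the ratio is a description and not evidence of a fall. The groups did not overlap in these 3 alpha-class genes. Gstt2, of the theta class, had 418 and 277 CPM with losartan and 302 and 202 CPM untreated and overlapped, and Gstz1 had 195 and 181 CPM with losartan and 173 and 169 CPM untreated (0.14, adjusted p = 0.612). The summed Gst level was 817 and 707 CPM with losartan and 792 and 690 CPM untreated, with overlap.

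The sulfotransferases gave no unadjusted p under 0.05 among 6 tested genes. Sult1d1 had 190 and 296 CPM with losartan and 269 and 304 CPM untreated (-0.24, adjusted p = 0.707), and Sult1c2 had 60 and 69.1 CPM with losartan and 65.6 and 91.6 CPM untreated (-0.28, adjusted p = 0.569). Both overlapped between groups. Sult1a1, a phenol sulfotransferase, had 1.82 and 2.3 CPM with losartan and 2.59 and 2.34 CPM untreated (-0.26, adjusted p = 0.76).

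**Figure D2:**
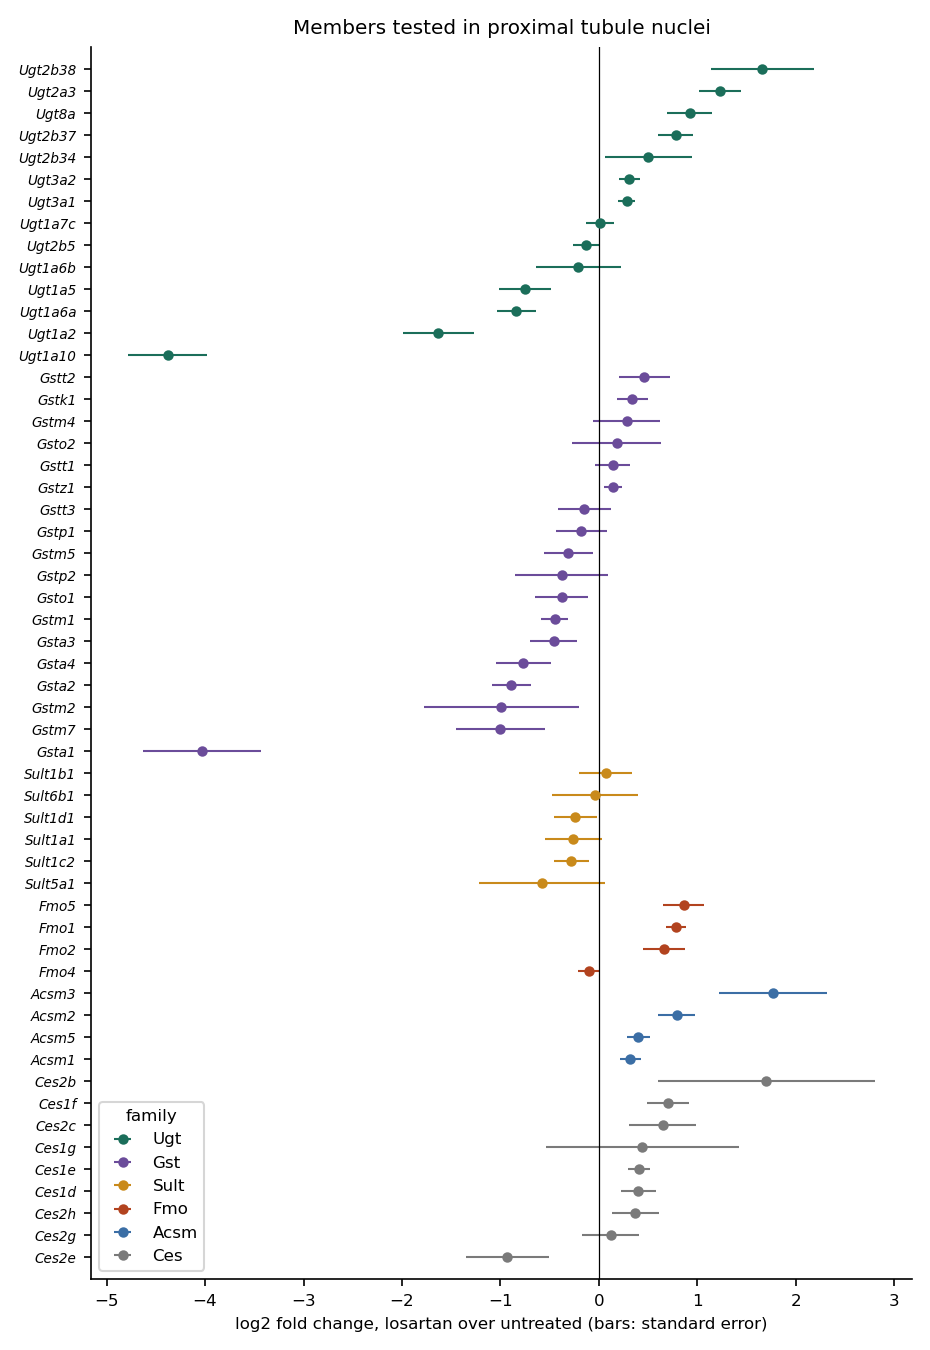
Log2 fold change, losartan over untreated, with its standard error (bars) for the 55 members tested in all proximal tubule nuclei, coloured by family, 2 libraries per group. Acsm and Fmo genes lie mostly right of 0 and Gst genes mostly left, Ugt genes run from -4.38 (Ugt1a10) to 1.66 (Ugt2b38), and no member was called.

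The exception was Ugt1a10 in S3, the segment that held most of its transcripts. Ugt1a10, a protein-coding glucuronosyltransferase gene (ENSMUSG00000090165), fell to 4.84 and 9.88 CPM in losartan S3 nuclei, against 93.1 and 147 CPM in untreated S3 nuclei, a log2 change of -4.01 (SE 0.36, adjusted p = 0.0317, edgeR). These levels rest on 16 and 34 UMIs with losartan and 321 and 424 UMIs untreated. The groups were far apart, and it was the 1 member called among 39 tested in S3, where 0.0585% of all genes were called and 0.0418% were called lower. The call held under all 11 alternative settings run on it, with changes between -4.61 and -3.59 and adjusted p from 5.47e-22 to 0.0392.

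S3 was made of 2 subclusters, and the difference had the same direction in each. In the larger one Ugt1a10 had 9.85 and 10.7 CPM with losartan and 111 and 149 CPM untreated. In the smaller one, of which losartan library 1 gave 338 of 576 nuclei, it had 0.522 and 4.63 CPM with losartan and 19.1 and 106 CPM untreated, from 1, 3, 10 and 3 UMIs. Neither subcluster had an overlap between the groups. In S2 it had 1 and 1 UMI with losartan and 7 and 22 untreated, and in all tubule nuclei 0.908 and 2.35 CPM with losartan and 28.8 and 37.3 CPM untreated (-4.38, SE 0.40, adjusted p = 0.153), which includes the S3 nuclei. A pair of tubule subclusters with mixed markers lay the other way on few UMIs: one had 5 and 6 UMIs from 211 and 182 losartan nuclei and 0 and 0 from 41 and 12 untreated nuclei, and the other had 1 and 1 UMI with losartan and 0 and 0 untreated. Over all barcodes before any filter Ugt1a10 had 39 and 87 UMIs in the losartan libraries and 586 and 709 in the untreated libraries. In injured tubule nuclei it had 0 and 4.61 CPM with losartan, 0 being from only 20 nuclei, and 7.77 and 6.15 CPM untreated.

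Other genes of the Ugt1a cluster lay on the same side in S3 without a call. Ugt1a5 had 0.908 and 1.16 CPM with losartan and 4.93 and 7.26 CPM untreated (-2.50, adjusted p = 0.235), Ugt1a6a had 9.08 and 6.1 CPM with losartan and 18.3 and 22.1 CPM untreated (-1.41, adjusted p = 0.248), and Ugt1a7c had 6.05 and 6.69 CPM with losartan and 10.4 and 12.8 CPM untreated (-0.86, adjusted p = 0.586). The groups did not overlap in any of the 3. Ugt1a9 and Ugt1a8, which lie within the span of Ugt1a10 and are below the UMI limit for members, had 0 and 0 UMIs and 1 and 1 UMI in the losartan libraries, and 18 and 21 UMIs and 10 and 15 UMIs in the untreated libraries. Ugt1a1, also within that span and below the limit, had 9 and 9 UMIs in the losartan libraries and 24 and 3 in the untreated libraries, with overlap. These 3 were looked up after the Ugt1a10 values were seen. Since these genes overlap on the same strand, reads of one can be counted for another.

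Over all 39 members tested in S3, both losartan libraries lay above both untreated ones for 17 (background 19.1%) and below them for 9 (background 17.8%), and 17 had an unadjusted p under 0.05 (7.73% of all genes). Acsm2 had 1723 and 1129 CPM with losartan and 369 and 625 CPM untreated in S3 (1.52, SE 0.30, adjusted p = 0.221), Ugt2b38 had 58.4 and 34.9 CPM with losartan and 16.2 and 7.61 CPM untreated (1.94, SE 0.39, adjusted p = 0.232), and Fmo1 had 390 and 374 CPM with losartan and 141 and 233 CPM untreated (1.03, adjusted p = 0.286). These 3 separated the groups. DESeq2 called 6 members in S3 (0.694% of all genes): Ugt1a10, Ugt2b38 (adjusted p = 0.00165), Acsm2 (adjusted p = 5.8e-05), Ugt8a, Fmo1 and Fmo5.

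In S1, 0 of 41 tested members were called by edgeR and 0 by DESeq2, against 0% and 0.331% of all genes, and 11 had an unadjusted p under 0.05 (9.14% of all genes). Both losartan libraries were above both untreated ones for 14 members (background 19.6%) and below for 5 (background 21%). Acsm2 had 1790 and 1624 CPM with losartan and 1286 and 1690 CPM untreated in S1, with overlap (0.20, adjusted p = 0.761). In S2, 0 of 39 members were called by edgeR, 12 had an unadjusted p under 0.05 (9.87% of all genes), and 13 lay above (background 18.9%) and 6 below (background 20.8%). DESeq2 called 1 there, against 0.761% of all genes: Gsta2, at 26.1 and 51.9 CPM with losartan and 157 and 117 CPM untreated (edgeR -1.83, SE 0.33, adjusted p = 0.187). The S2 nuclei of the groups fell in different subclusters: 1 of the 3 held 48 and 297 of the 1857 and 996 S2 nuclei with losartan and 321 and 328 of the 496 and 411 untreated. Without the subcluster of which losartan library 1 gave 1129 of 1246 nuclei, an alternative added after the data were seen, the Gsta2 change was -1.51 (SE 0.18, adjusted p = 0.0337, edgeR). The part of the uneven mix of the other subclusters was not tested.

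Whether the effect of losartan differed between S3 and S1 was tested as an interaction with library as a block. No member of 46 tested was called by edgeR, against 0.094% of all genes. Acsm2 had the lowest adjusted p: its change in S3 exceeded that in S1 by 1.33 (SE 0.21, adjusted p = 0.0572). It was the 1 member that DESeq2 called, and it was called under 9 of 11 alternatives, with differences between 0.89 and 1.56. The difference was 1.44 for Ugt2b37 (adjusted p = 0.209), 0.76 for Ugt8a (adjusted p = 0.293), -1.48 for Gsta2 (adjusted p = 0.222) and -1.60 for Ugt1a10 (SE 0.69, adjusted p = 0.616). For Ugt1a10 the S1 side rests on 3 and 3 UMIs with losartan and 7 and 14 untreated.

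**Figure D3:**
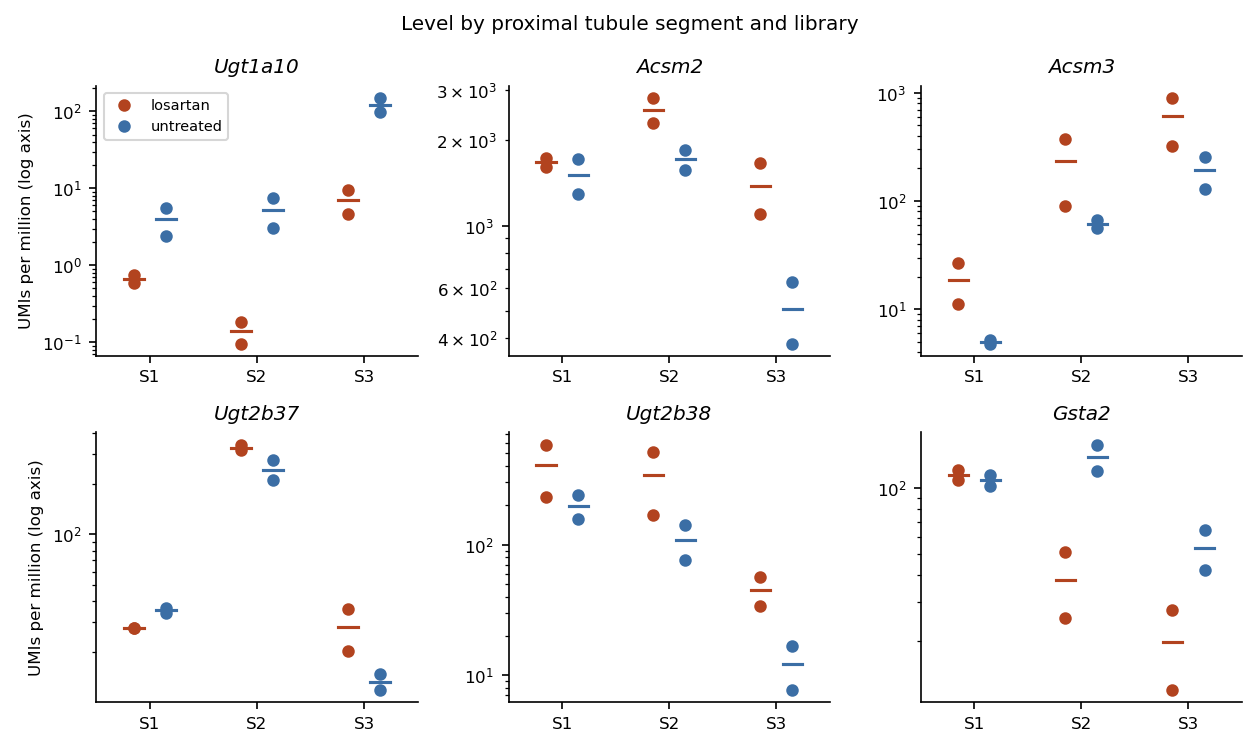
Level in CPM (log axis) of 6 members in S1, S2 and S3 nuclei; each point is a library, losartan left of untreated in each segment, and the bar is the mean of 2 libraries. Ugt1a10 in S3 lies at 4.65 and 9.58 with losartan and 96.8 and 148 untreated, Acsm2 separates the groups in S2 and S3 but not in S1, and Ugt2b37 is about an order of magnitude higher in S2 than in S1 or S3.

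In the whole kidney 0 of 62 tested members were called by edgeR (0% of all genes), 27 had an unadjusted p under 0.05 (21.9% of all genes), and DESeq2 called 18 (8.81% of all genes). Both losartan libraries lay above both untreated ones for 27 members (background 27.8%) and below them for 9 (background 29.1%), with a median log2 change of 0.21 beside -0.01 over all genes. The counts of S1 and S2 nuclei given above were also higher in both losartan libraries, and in sums over the kidney more tubule nuclei and more RNA per nucleus cannot be told apart. Acsm2 had 1749 and 1150 CPM with losartan and 543 and 497 CPM untreated there (1.48, SE 0.23, adjusted p = 0.112), a larger change than within the tubule.

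Genes that work with these enzymes, with androgen-responsive and sex-linked genes as a check, were taken from 5 lists. In the whole kidney or the proximal tubule 0 of them were called by edgeR. In the tubule DESeq2 called 1 of the conjugation partners, 5 of the other oxidation and hydrolysis enzymes, 1 regulator, 2 efflux pumps and 5 of the androgen-responsive and sex-linked genes, against 2% of all genes. The counts of list genes in the tubule below stand beside 21.6% of all genes above, 23.4% below and 12.5% with an unadjusted p under 0.05. The list genes named here were picked after their values were seen. Of 27 genes for conjugation partners and co-substrates, 23 were tested in the tubule, 7 above and 5 below in both losartan libraries, with 8 at an unadjusted p under 0.05 and a median log2 change of 0.05. Glyat, which transfers glycine to the acids that Acsm enzymes activate, had 501 and 420 CPM with losartan and 321 and 335 CPM untreated (0.49, adjusted p = 0.248). Inmt, a methyltransferase, had 174 and 108 CPM with losartan and 53.1 and 44.1 CPM untreated (1.54, adjusted p = 0.213). Of 20 other oxidation and hydrolysis enzymes, 18 were tested, 6 above and 8 below, with 7 at an unadjusted p under 0.05. Ephx1, the microsomal epoxide hydrolase, had 6.53 and 14.3 CPM with losartan and 35.2 and 33.7 CPM untreated (-1.74, adjusted p = 0.23). These 3 genes separated the groups without a call.

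Of 16 regulators, 16 were tested in the tubule, 5 above and 4 below, with 3 at an unadjusted p under 0.05. Nr1i3, the constitutive androstane receptor, had 2.73 and 2.35 CPM with losartan and 5.86 and 4.45 CPM untreated (-1.02, adjusted p = 0.255). Of 9 efflux pumps, which carry conjugates out of the cell, 1 was above and 4 were below in the tubule, and 4 had an unadjusted p under 0.05. In S3 the pump Abcc4 was called, at 93.2 and 94.5 CPM with losartan and 406 and 452 CPM untreated (-2.19, SE 0.14, adjusted p = 0.0139), and the other 8 were not. Of 16 androgen-responsive and sex-linked genes, 15 were tested in the tubule, 10 above and 2 below, with 8 at an unadjusted p under 0.05 and a median change of 0.25. Kap, an androgen-responsive tubule transcript, had 2879 and 2745 CPM with losartan and 1349 and 1402 CPM untreated (1.03, adjusted p = 0.155).

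Outside the proximal tubule 11 classes had at least 50 nuclei in every library, and 14 of 302 tests on members gave a call (4.64%), against 0.275% of all genes. Acsm2 rose to 207 and 204 CPM in losartan distal convoluted tubule nuclei, against 73.7 and 59.3 CPM in untreated ones (log2 1.63, SE 0.13, adjusted p = 0.00204, edgeR), where 0.264% of all genes were called. It also rose in intercalated cells (456 and 372 CPM with losartan, 114 and 71.3 CPM untreated, adjusted p = 0.0268, background 0.565%), in mural and mesangial nuclei (783 and 737 CPM with losartan, 242 and 297 CPM untreated, adjusted p = 0.0129, background 1.67%) and in the thick ascending limb (237 and 188 CPM with losartan, 84.2 and 60.5 CPM untreated, adjusted p = 0.0265, background 0.339%). The groups did not overlap in any of these classes. Of the 14 calls, 13 were of higher values, and 12 of these 13 were of Acsm, Fmo or Ces genes or Ugt8a, with Ugt2b38 in podocytes as the other (90.5 and 51.4 CPM with losartan, 17.4 and 10.5 CPM untreated, log2 2.37, adjusted p = 0.0335, background 0.259%). Without losartan library 1 the calls of Ugt2b38 in podocytes (adjusted p = 0.604), of Acsm3 in mural and mesangial nuclei (adjusted p = 0.183), of Ces1d in intercalated cells (adjusted p = 0.0519) and of Acsm2 in the thick ascending limb (adjusted p = 0.919) were lost, and without losartan library 2 those of Acsm2 in the thick ascending limb (adjusted p = 0.796) and of Fmo1, Fmo2, Ugt8a, Acsm1 and Ces1d in intercalated cells (adjusted p 0.0572 to 0.12). Ces1d in the distal convoluted tubule was lost without any 1 of the 4 libraries (adjusted p 0.0764 to 0.223).

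Markers of the proximal tubule lay higher in the same nuclei. The 7 markers (Slc34a1, Lrp2, Cubn, Slc5a12, Slc13a3, Keg1 and Hnf4a) had median log2 changes between 0.80 in endothelium and 1.62 in intercalated cells over the 11 classes, beside 0.24 in the proximal tubule itself. Their level in intercalated cells, as a percentage of the tubule level, was 20 and 17.8 with losartan and 8.41 and 4.57 untreated. In distal convoluted tubule it was 8.37 and 9.88 with losartan and 6.97 and 2.97 untreated, in mural and mesangial nuclei 26.7 and 34.1 with losartan and 20.2 and 11.5 untreated, in podocytes 9.81 and 9.22 with losartan and 6.08 and 3.68 untreated, and in the thick ascending limb 8.8 and 7.31 with losartan and 6.41 and 2.8 untreated. In each of these 5 classes both losartan libraries were above both untreated ones. Acsm2, Ces1d, Fmo1 and Ugt2b38 lay higher in both losartan libraries in 11 of 11 classes. The share of all genes that did so in these classes was not counted, so this is a description only. The part of free tubule RNA in these calls was not tested. Without the nuclei richest in tubule UMIs in each class, there were 9 member calls in all, of which 5 were among the 14 and 4 were not, and 0 were in intercalated cells. Acsm2 in the distal convoluted tubule was called under all 11 alternatives (adjusted p 8.77e-13 to 0.0326). Its mean level there was 8.09% of its tubule level, beside 7.05% for the markers, and it stood at 0.954 to 1.42 times the level given by the markers over the 4 libraries.

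**Figure D4:**
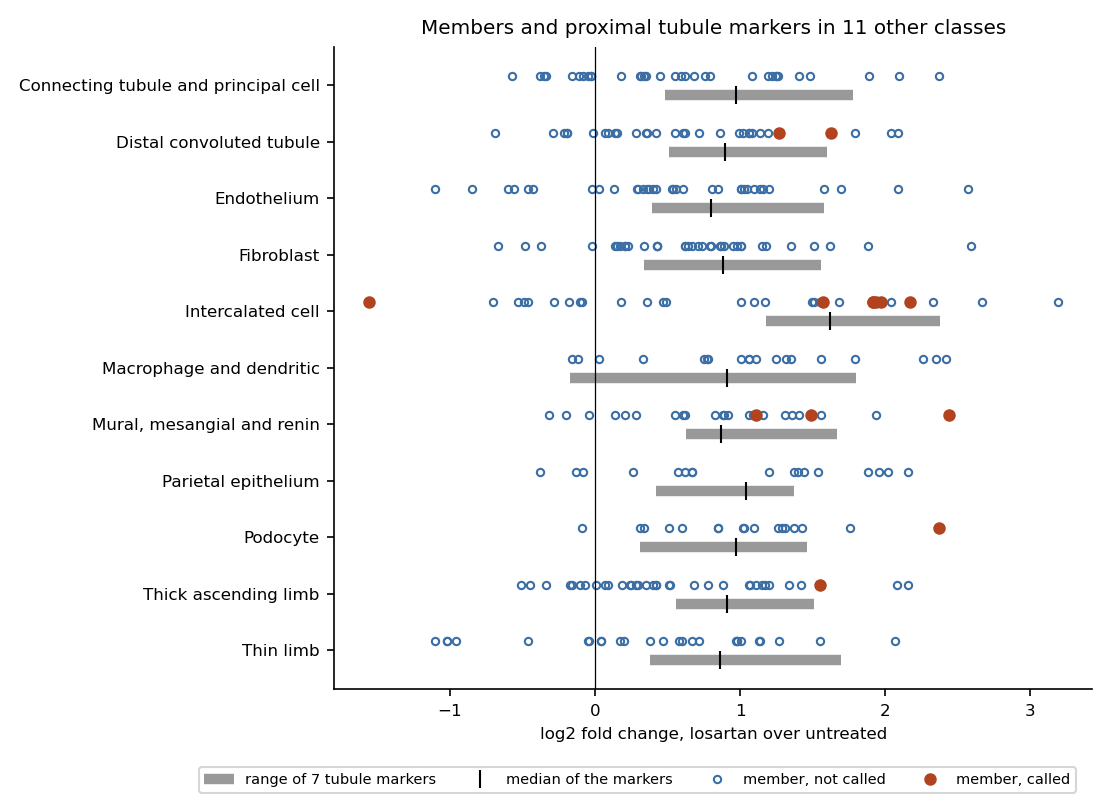
Log2 fold change, losartan over untreated, of every member tested in each of 11 classes outside the proximal tubule (open circles, filled where called), with the range (grey bar) and median (tick) of 7 proximal tubule markers in the same class. Called members with higher values lie within or above the range of the markers, and Sult5a1 in intercalated cells, at -1.56, is the 1 call below 0.

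Intercalated cells, the acid-base cells of the connecting tubule and collecting duct, held the 1 lower call. Sult5a1 (chromosome 8, 123140192 to 123158315, minus strand) fell to 48.3 and 63.4 CPM in losartan intercalated cells, against 157 and 172 CPM untreated, a log2 change of -1.56 (SE 0.18, adjusted p = 0.0268, edgeR). In this class 0.565% of all genes were called, 54 of 57 of them higher and 0.0298% of all genes lower. The other 6 member calls there were Acsm2, Acsm1 (72.9 and 91.6 CPM with losartan, 27.8 and 15.9 CPM untreated), Ces1d, Fmo1, Fmo2 and Ugt8a, with log2 changes between 1.57 and 2.17. Markers of type A cells were lower with losartan and those of type B cells higher, none called: Slc4a1, the type A anion exchanger, had 90.9 and 105 CPM with losartan and 129 and 237 CPM untreated, and Slc26a4, the type B exchanger pendrin, had 4700 and 3632 CPM with losartan and 2787 and 1951 CPM untreated. The pan-intercalated marker Atp6v0d2 had 1279 and 1217 CPM with losartan and 1290 and 1245 CPM untreated. The intercalated cluster with Aqp6, Kit and Slc4a1 among its leading genes held 107 and 98 nuclei with losartan and 175 and 193 untreated. The cluster with Slc26a4 and Slc4a9 among them held 128 and 119 nuclei with losartan and 111 and 65 untreated. Whether the mix of type A and type B cells moves with Sult5a1 was not tested. Without the nuclei richest in tubule UMIs the Sult5a1 change was -1.28 (adjusted p = 0.112), and with nuclei of 1000 to 15000 UMIs it was -1.50 (adjusted p = 0.0983).

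A group of sulfotransferases was found mainly outside the tubule. Of 40 members with at least 50 UMIs in a class outside the named tubule segments, 25 reached or passed their proximal tubule level in at least 1 class. For 5 of the 25 (Gstm5, Sult1c2, Ugt2b37, Ugt2b34 and Ugt2b5) the class highest against the tubule was injured proximal tubule nuclei. These levels are a description, set beside the ratio of tubule markers in the class, which stands for the level that RNA from the tubule would give in the proportion of its markers. Sult2a3, of the hydroxysteroid family, had 16.4 and 38.1 CPM in intercalated cells with losartan and 28.5 and 30.9 CPM untreated, against a tubule mean of 0.0449 CPM. Sult5a1 had 46.4 and 61.6 CPM in intercalated cells with losartan and 156 and 171 CPM untreated, against a tubule mean of 1.06 CPM. Sult2b1, a cholesterol sulfotransferase, averaged 30.1 ± 7.7 CPM in the thin limb (SD, n = 4 libraries of both groups) and 0.372 CPM in the tubule. Sult1a1 averaged 67.3 ± 18.5 CPM in fibroblasts and 2.27 CPM in the tubule.

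Members of the other families also had higher levels in another class than in the tubule. Fmo2 had 1056 and 1163 CPM in fibroblasts with losartan and 712 and 577 CPM untreated, against 273 CPM in the tubule. Fmo5 had 1238 and 1070 CPM in urothelium with losartan and 491 and 1202 CPM untreated, against 151 CPM in the tubule. Gsta4, which conjugates hydroxynonenal from lipid peroxidation, averaged 163 ± 89.3 CPM in urothelium and 2.81 CPM in the tubule, and Gsto1, of the omega class, had 210 and 146 CPM in urothelium with losartan and 275 and 210 CPM untreated. Urothelium held 29 nuclei in untreated library 1, and its values are the least precise of these. Ces2e averaged 15.2 ± 3.65 CPM in endothelium and 2.34 CPM in the tubule. Ugt8a had 421 and 619 CPM in the thin limb with losartan and 174 and 626 CPM untreated, against a tubule mean of 282 CPM. Acsm3 had 337 CPM in adipocytes of losartan library 2 and 327 CPM in those of untreated library 2, the libraries with a value there, against 96.6 CPM in the tubule. The tubule markers stood at 3.26 to 20% of their tubule level over the libraries in urothelium, thin limb, fibroblasts, endothelium and intercalated cells.

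**Figure D5:**
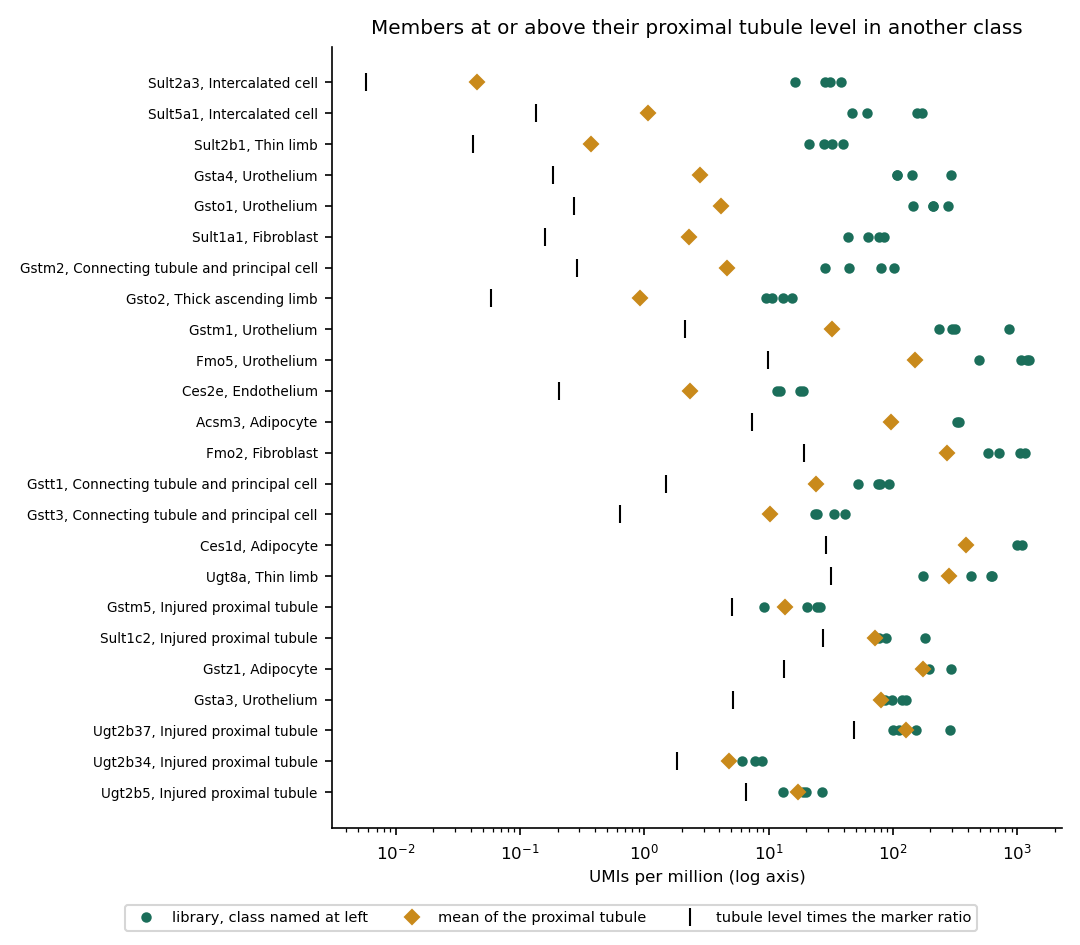
Level in CPM (log axis) of 24 members in the class outside the named tubule segments where each is highest relative to the tubule; green points are libraries, orange diamonds the proximal tubule mean, and black ticks that mean multiplied by the ratio of 7 tubule markers in the class. Sult2a3 in intercalated cells lies farthest from its tick. Ugt2b34 was at 0 in losartan library 1 and that point is not drawn.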

How the data were processed

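The deposited matrices hold raw UMI counts per gene and nucleus, written by Cell Ranger 5.0.0 per the file headers. The submitters' processing notes also list Bowtie 0.12.2 and mm10, and give no role to them. Barcodes needed 500 or more UMIs, 300 or more genes and no more than 10% mitochondrial UMIs to be kept, after removal of doublets by Scrublet scores in scanpy 1.11.5 (at 0.8% per 1000 nuclei in 3 libraries whose automatic threshold marked under 0.5%). Nuclei were clustered without the members (36 clusters, 5 of them unnamed; 14 proximal tubule subclusters, of which 4 mixed with another class were left without a segment) and named from marker lists.

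Counts were summed per library and class, where each library had 50 or more nuclei of the class. Group differences, losartan over untreated, were fitted in R 4.3.3 with edgeR 4.0.16 (quasi-likelihood, TMM scaling, filterByExpr) and Benjamini-Hochberg adjustment over all genes. Segment levels without a test are CPM without TMM factors. DESeq2 1.42.0 was an alternative, beside other scaling, no filter, a replicate block, each library left out, other depth and mitochondrial limits, segments by marker score, and classes without the 10% of nuclei richest in tubule UMIs. Leaving out the 2 subclusters held at 80% or more by 1 library was chosen after seeing the data. The edgeR step was tested on simulated data: at a log2 change of 2 it recovered 92% of changed genes in the tubule (14998 genes) and 84% in S3 (11968 genes), and at a log2 change of 1 it recovered 57% and 36%. In the whole kidney (18395 genes) it recovered 85% and 50%. The simulated libraries shared a mean profile, without an outlying library or a shift in nuclei. These shares therefore need not hold for the real counts and do not show that an uncalled gene is unchanged.

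Members named by rule were those called, the 3 with most UMIs in each family, the 3 highest and 3 lowest changes in the tubule and the 5 highest outside it; further members were picked after their values were seen. The members and lists were chosen with earlier results of these data known. Intervals cover counting error only. Some items are not reported here.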

Additional observations from a re-analysis of the deposited data

Results flagged for a closer look

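A further set of values was flagged because both losartan libraries lay on one side of both untreated libraries in one tubule segment and on the opposite side in another. In single segments, 18.9% to 19.6% of all genes lay above and 17.8% to 21% below. The share of all genes on opposite sides in a pair of segments was not counted, so these members are not shown to be unusual. Ugt2b37 had 37.5 and 20.9 CPM with losartan and 14.2 and 11.8 CPM untreated in S3, against 28.6 and 28.3 CPM with losartan and 34.1 and 36.1 CPM untreated in S1. Its separately fitted log2 change in S3 was 1.46 above that in S1 (interaction test of edgeR, adjusted p = 0.209), and that in S2 was 0.79 above it. Ugt1a7c had 6.05 and 6.69 CPM with losartan and 10.4 and 12.8 CPM untreated in S3, against 12.4 and 13 CPM with losartan and 9.56 and 5.88 CPM untreated in S1. Its change differed from that in S1 by -1.56 in S3 (adjusted p = 0.334) and by -1.0 in S2. Ugt1a5 had 0.908 and 1.16 CPM with losartan and 4.93 and 7.26 CPM untreated in S3, against 3.05 and 3.25 CPM with losartan and 2.39 and 2.35 CPM untreated in S1, a difference of -2.90 (adjusted p = 0.285). The S2 differences were not tested, and with 2 libraries a group no sample could be examined as an outlier.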

How the results depend on the processing

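Of 416 alternative values for single members, 362 kept direction and side of the threshold, 39 lost a call, 13 gained one and 2 reversed. Both reversals came without losartan library 1. Only a result called in the main fit can lose a call, and most of the 416 values belong to results not called there. The count that kept its side thus says little about how stable the calls are. For Sult1d1 in the tubule, values with 1 library left out ran from -0.59 to 0.05, and for Ces2b from -0.93 to 2.55. Counts of called members moved more than single values. The share of all genes called under the same setting follows each count in parentheses. Without the filter on low counts they were 2 in the tubule (0.152%), 12 in S1 (2.38%), 11 in S2 (3.42%), 10 in S3 (0.882%), 8 for the S3 and S1 difference (1.13%) and 69 in other classes (1.36%). DESeq2 gave 18 in the whole kidney (8.81%), 8 in the tubule (2%), 1 in S2 (0.761%), 6 in S3 (0.694%), 1 for the difference (0.133%) and 30 in other classes (0.516%). With 1 library left out, where a lone library is assumed to vary like the other group, the ranges were 0 to 2 in the whole kidney, 0 to 6 in the tubule, 0 to 7 in S1, 1 to 7 in S3, 1 to 4 for the difference and 15 to 104 in other classes. The highest counts in the whole kidney (2, 0.116% of all genes), the tubule (6, 1.11%), S3 (7, 1.07%) and the difference (4, 1.42%) came without losartan library 2, and those in S1 (7, 4.09%) and other classes (104, 4.77%) without untreated library 1. Without the subclusters held by 1 library there was 1 call in S2 (0.203%) and 2 for the difference (0.159%). Segments by marker score gave 2 for the difference (0.139%), and at most 5% mitochondrial UMIs gave 1 (0.102%). Other classes had 5 calls with 1000 to 15000 UMIs (0.117%), where 3 of the 11 classes had too few nuclei, and 9 without the nuclei richest in tubule UMIs (0.382%). With 1000 to 15000 UMIs, 3 of the 5 calls were among the 14 of the main fits. Intercalated cells and mural and mesangial nuclei were fitted there and gave 0 calls, against 7 and 3 in the main fits. The cause of these shifts was not tested. The labels do not say whether same-numbered libraries share a batch, and the main fits use no block. Deviations of same-numbered libraries correlated at 0.352 in the whole kidney and 0.132 in the tubule. Adipocytes were found only in the libraries numbered 2, with 46 nuclei in the losartan library and 64 in the untreated one. Whether the replicate number stands for a batch was not tested. A replicate block gave 23 calls in the whole kidney (10.9%), 1 in the tubule (0.0531%), 11 in S1 (3.3%), 3 in S2 (1.15%), 5 in S3 (0.803%) and 62 in other classes (1.77%). Depth limits members with few UMIs, such as Gsta1, Ugt1a2 and Ugt1a5.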
